A study of Mus musculus with 6 samples.

Results

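The genes described are 40 ribosome biogenesis and nucleolar factors, taken by gene symbol from a mouse RNA sequencing table of 21604 symbols in which all 40 were found. RNA came from RAW 264.7, a mouse macrophage-like tumour line that the labels also call a bone marrow macrophage. The LPS plus PE-CUR group held 3 libraries of wild type cells given lipopolysaccharide (LPS), which comes from the outer membrane of Gram-negative bacteria and stimulates macrophages, at 100 ng/mL together with PE-CUR at 2 mg/mL for 24 h. The LPS group, also 3 libraries, had the same line, genotype, LPS dose and time without PE-CUR. The series title speaks of curcumin-loaded Pickering emulsions, oil and water droplets held by solid particles that carry a plant polyphenol. The labels name no cells without LPS, no empty emulsion and no free curcumin, so each comparison is LPS plus PE-CUR over LPS. Nothing in the labels says that the libraries came from separate cultures, and the p-values therefore measure the spread between these libraries, which may be technical.

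Ribosomes are made in the nucleolus. RNA polymerase I transcribes a long precursor of the ribosomal RNAs, small nucleolar ribonucleoproteins (snoRNPs) modify it at guided positions, and assembly factors fold and cut it while ribosomal proteins are added, giving a small and a large subunit that leave for the cytoplasm. Box C/D snoRNPs place methyl groups on ribose and box H/ACA snoRNPs convert uridine to pseudouridine. The work takes a large part of the energy of a growing cell, and transcription factors of the Myc family are known to drive many of its genes.

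Of the 40 factors 38 were higher in LPS plus PE-CUR than in LPS, 0 were lower and 2, Gnl2 and Noc3l, did not pass (edgeR quasi-likelihood test, Benjamini-Hochberg adjusted p under 0.05 over 13014 genes). Among all genes tested 30.8% were called higher and 63.4% were called in either direction. The fitted fold of the 38 ran from 1.30 for Utp15 to 3.30 for Dkc1, and their largest adjusted p was 0.00442 (edgeR), that of Brix1. The median log2 fold change of the 40 was 0.83, against -0.03 over all genes tested, and 37 of the 40 lay above the 75th percentile of all genes, which was 0.40. At least 2-fold rises were called for 12 of the 40, where 6.37% of all genes were called 2-fold higher. In 39 of the 40 every LPS plus PE-CUR library exceeded every LPS library in TMM-scaled CPM (counts scaled by library size), which held for 33.3% of all genes tested. The 40 genes together took 0.748%, 0.809% and 0.762% of all counts in LPS plus PE-CUR replicates 1 to 3, against 0.444%, 0.410% and 0.397% in LPS replicates 1 to 3. RNA from bulk cells does not show whether more cells carried these transcripts or each cell carried more of them.

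Total counts per library were 28530750 to 35276533, and no factor had fewer than 794 counts in any library. Across genes, log2 levels correlated at 0.985 or more between libraries of 1 group and at 0.955 or less between groups (Pearson). Of 11 macrophage markers 10 had counts in all 6 libraries, and the 11 summed to 9168 to 10231 CPM in LPS plus PE-CUR, against 11023 to 11638 CPM in LPS. Lyz2, a lysozyme gene, was the largest member of that sum, at 4835 CPM in LPS plus PE-CUR and 6421 CPM in LPS (means after TMM scaling). By edgeR 3 of the 11 were lower, namely Lyz2, Itgam and Adgre1 (26.8 CPM in LPS plus PE-CUR, 85.2 CPM in LPS, edgeR adjusted p = 4.14e-07), Csf1r and Cd14 were higher, and 6 did not pass. The part of these marker changes in the results was not tested. The gene without counts in all libraries was Mrc1, at 0 in LPS plus PE-CUR replicates 1 and 3. Hepatocyte transcripts, which these cells should lack, summed to 4.09, 3.86 and 92.8 CPM in LPS plus PE-CUR replicates 1 to 3, against 78.3 to 95.2 CPM in LPS, over 10 markers of which 1 had counts in all libraries. Replicate 3 of LPS plus PE-CUR, with a hepatocyte sum inside the LPS range, gave 0.762% of its counts to the 40 factors, against at most 0.444% in an LPS library. Without that library 38 factors were called higher and 0 lower. The hepatocyte sums of the remaining libraries differ wholly between the groups, so that fit cannot separate them from PE-CUR. The part of the hepatocyte transcripts in the results was not tested. Markers of fibroblasts (5 in the table), muscle (4), lymphocytes (4), red cells (5) and epithelia (5) summed to 0 to 12.1 CPM in LPS plus PE-CUR and 0.402 to 2.35 CPM in LPS, the highest being fibroblast markers in LPS plus PE-CUR replicate 2. Without replicate 2 the counts were again 38 higher and 0 lower.

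**Figure D1:**
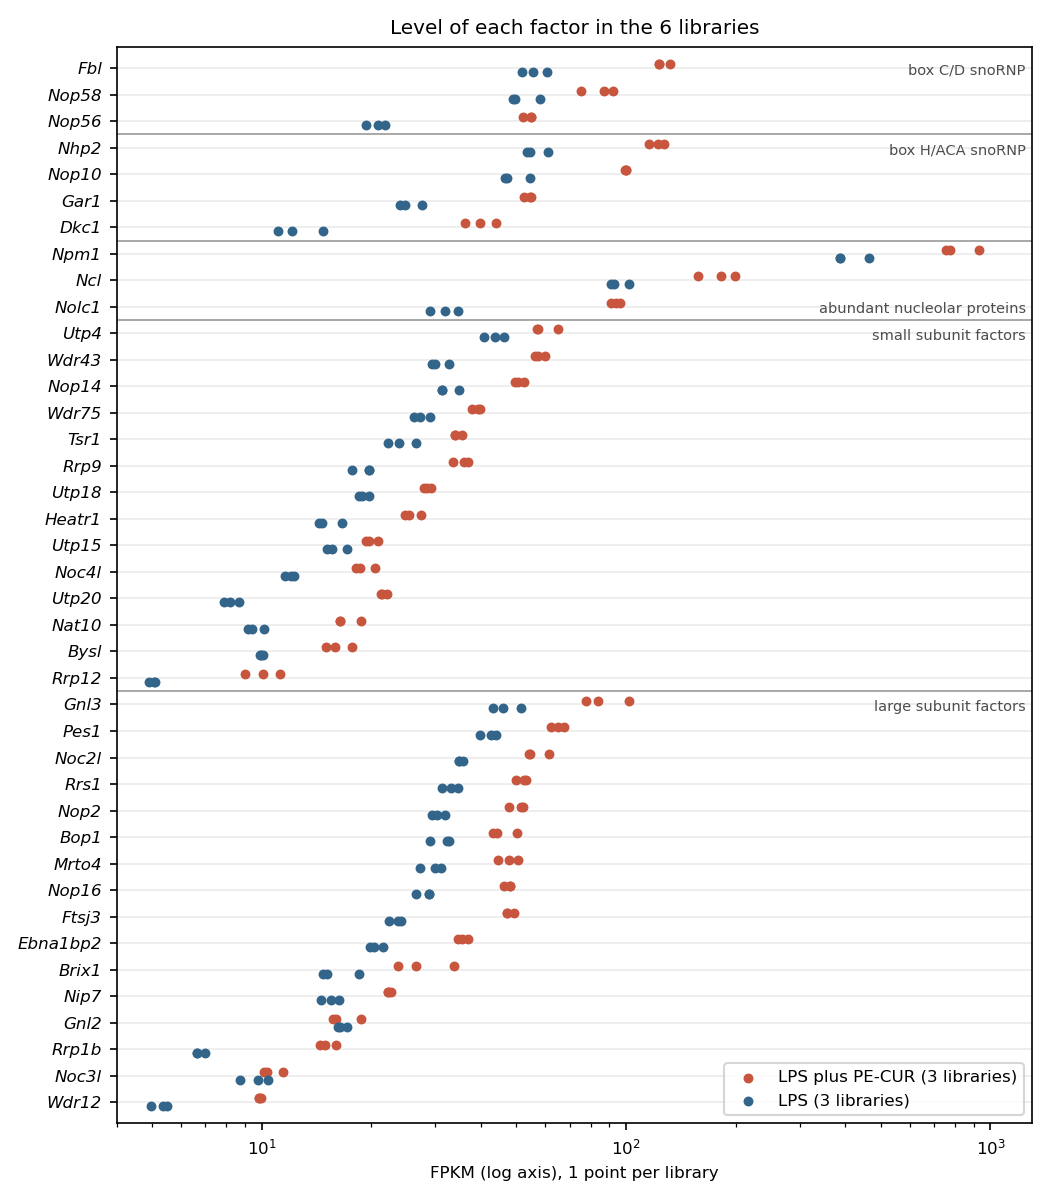
FPKM of each of the 40 factors on a log axis, 1 point per library, LPS plus PE-CUR above LPS in each row, grouped by role and ordered by mean level. The points of the groups separate in every row but that of Gnl2 and, on this scale, Noc3l. Npm1 has the highest mean FPKM and Rrp12 the lowest.

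Levels are given as FPKM, the authors' values scaled by gene length and library total. They rest on the gene lengths the authors used, so a rank by FPKM need not be a rank by transcript number. As means over the 6 libraries, FPKM spanned 7.56 for Rrp12 to 616 for Npm1. The median of these means was 36.5 for the 40 factors and 7.06 for all genes tested. The shares of all genes given above are not matched for level, which affects how readily a gene passes. Fold changes and tests come from the counts scaled by TMM factors, which FPKM values do not carry, so the ratio of 2 FPKM values differs slightly from the fitted fold.

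All 3 core proteins of box C/D snoRNPs in the list rose. Nop56, a scaffold protein of the particle (chromosome 2, 130274430 to 130279313, plus strand, build mm10), had 54.9, 54.9 and 52.3 FPKM in LPS plus PE-CUR replicates 1 to 3, against 21.9, 20.9 and 19.4 FPKM in LPS. The lowest LPS plus PE-CUR library was thus far above the highest LPS library, with a log2 fold change of 1.44 (SE 0.06, edgeR adjusted p = 4.78e-08). Fbl encodes fibrillarin, the methyltransferase itself (chromosome 7, 28169710 to 28179269). It had 132, 124 and 123 FPKM in LPS plus PE-CUR, against 55.6, 60.8 and 52.0 FPKM in LPS, a log2 fold change of 1.22 (SE 0.07, edgeR adjusted p = 1.74e-07). Nop58, the second scaffold protein, had a smaller fitted rise, with 75.4, 92.0 and 86.9 FPKM in LPS plus PE-CUR and 58.1, 49.4 and 48.9 FPKM in LPS (log2 fold change 0.76, SE 0.10, edgeR adjusted p = 1.91e-04). Its LPS plus PE-CUR libraries also varied more, with a coefficient of variation (CV, of TMM-scaled CPM) of 12.3% against 2.95% for Nop56.

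Because the 3 proteins sit in one particle, their transcript ratios were set side by side, for pairs chosen after the fold changes were seen. The Nop56 level was 0.642 ± 0.0747 of the Nop58 level in LPS plus PE-CUR and 0.398 ± 0.0234 in LPS (SD, n = 3 each, ratio of FPKM), with no overlap of the groups. Nop58 stood at 0.673 ± 0.0907 of Fbl in LPS plus PE-CUR and 0.933 ± 0.116 in LPS, again without overlap. No test was made of these ratios, because the pairs were picked with their values known.

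The 4 box H/ACA proteins, which also belong to telomerase, were the only role class in which each member rose at least 2-fold. Dkc1, the pseudouridine synthase dyskerin (chromosome X, 75095854 to 75109777), had 36.2, 44.0 and 39.7 FPKM in LPS plus PE-CUR, against 14.7, 12.1 and 11.1 FPKM in LPS. Its log2 fold change of 1.72 (SE 0.13, edgeR adjusted p = 9.73e-06) was the largest among the 40 genes. Nhp2 binds the RNA of the particle (chromosome 11, 51619735 to 51623714) and had 123, 116 and 127 FPKM in LPS plus PE-CUR, against 54.4, 60.9 and 53.3 FPKM in LPS (log2 fold change 1.17, SE 0.07, edgeR adjusted p = 2.71e-07). Nop10, a small protein that joins dyskerin and Nhp2 (chromosome 2, 112261926 to 112263269), had 100.2, 100.3 and 99.2 FPKM in LPS plus PE-CUR, against 46.6, 54.6 and 47.1 FPKM in LPS (log2 fold change 1.07, SE 0.08, edgeR adjusted p = 6.88e-07). Gar1, a protein at the outside of the particle, stood at 54.0 ± 1.22 FPKM in LPS plus PE-CUR and 25.4 ± 1.91 FPKM in LPS (SD, n = 3 each). The ratio of Gar1 to Nhp2 was 0.444 ± 0.0126 in LPS plus PE-CUR and 0.452 ± 0.00355 in LPS, with overlapping libraries. The ratio of Dkc1 to Nhp2 was 0.330 ± 0.0449 in LPS plus PE-CUR and 0.226 ± 0.0392 in LPS, without overlap.

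**Figure D2:**
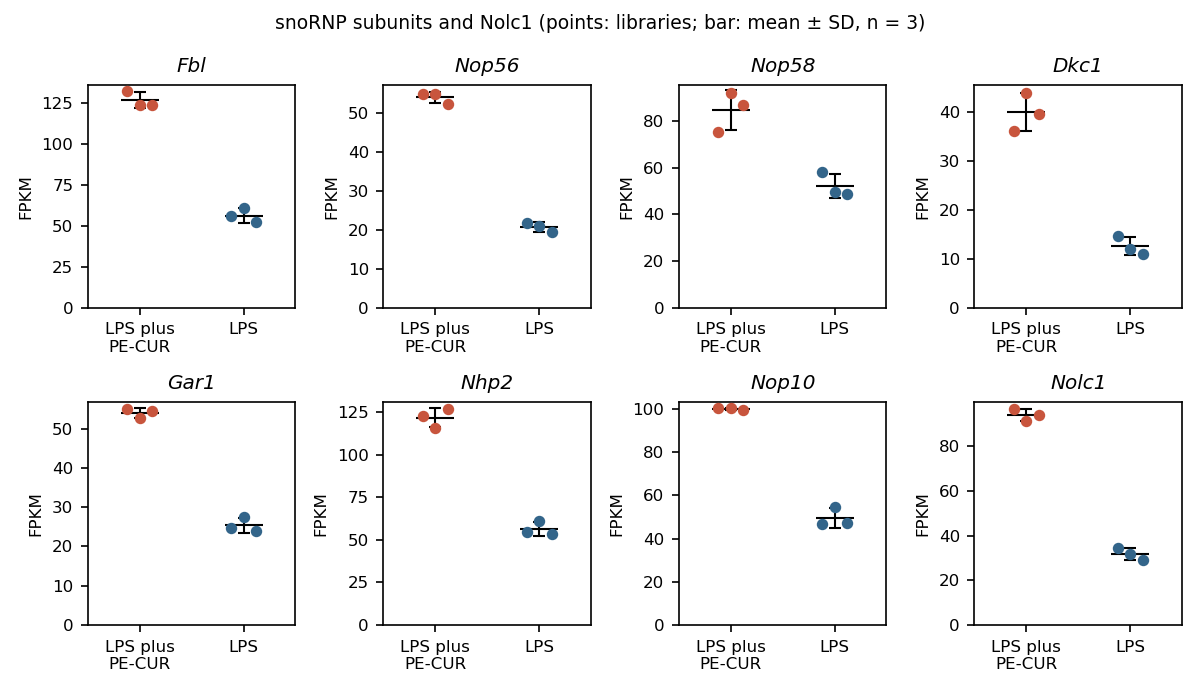
FPKM of the box C/D proteins (Fbl, Nop56, Nop58), the box H/ACA proteins (Dkc1, Gar1, Nhp2, Nop10) and Nolc1 in LPS plus PE-CUR (left) and LPS (right), with 1 point per library and the mean ± SD of 3. In each panel all LPS plus PE-CUR points lie above all LPS points, from 1.69-fold (Nop58) to 3.30-fold (Dkc1) by the fitted fold.

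The list also holds 3 abundant nucleolar proteins, and all of them rose. Npm1, a chaperone that helps to hold the nucleolus together (chromosome 11, 33152287 to 33163206), had the highest mean FPKM of the 40. Its libraries had 755, 928 and 776 FPKM in LPS plus PE-CUR, against 464, 388 and 386 FPKM in LPS (log2 fold change 1.05, SE 0.11, edgeR adjusted p = 6.22e-05). Ncl, nucleolin, which binds ribosomal RNA precursors (chromosome 1, 86344719 to 86359400), had 157, 199 and 182 FPKM in LPS plus PE-CUR, against 102, 92.5 and 91.1 FPKM in LPS (log2 fold change 0.97, SE 0.10, edgeR adjusted p = 3.07e-05). Nolc1, a phosphoprotein that binds both kinds of snoRNP (chromosome 19, 46075863 to 46085530), changed more, with 96.4, 91.1 and 93.8 FPKM in LPS plus PE-CUR and 34.5, 31.8 and 29.0 FPKM in LPS (log2 fold change 1.62, SE 0.07, edgeR adjusted p = 4.58e-08). Nolc1 varied little between LPS plus PE-CUR libraries (CV 1.10%), whereas Ncl and Npm1 had CVs of 13.9% and 13.3% there. These 3 genes took 0.333 ± 0.0325% of all counts in LPS plus PE-CUR and 0.166 ± 0.0138% in LPS (SD, n = 3 each).

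The 14 small subunit factors all rose, with a median log2 fold change of 0.74 and a range of 0.38 to 1.44. Utp20, a very large repeat protein of the particle that processes the small subunit RNA (chromosome 10, 88746607 to 88826804), led them with 21.4, 22.05 and 21.3 FPKM in LPS plus PE-CUR, against 8.66, 8.21 and 7.89 FPKM in LPS. The libraries of each group lay close together (log2 fold change 1.44, SE 0.06, edgeR adjusted p = 4.58e-08). Rrp12, a repeat protein linked to nuclear export of subunits in yeast, was the other small subunit factor past 2-fold (fitted fold 2.08). It had the lowest mean FPKM of the 40, with 10.1 ± 1.11 FPKM in LPS plus PE-CUR and 5.03 ± 0.0935 FPKM in LPS. In TMM-scaled CPM it stood above Noc3l, at 79.8 against 43.2 in LPS plus PE-CUR. The longest annotated transcripts of Rrp12 and Noc3l have 4340 and 3977 bases, which differ too little to give this order. As FPKM is count over gene length and library total, the authors' length for Rrp12 must exceed that for Noc3l by more. The low rank of Rrp12 by FPKM thus rests on that length. Rrp9, a protein specific to the snoRNP that guides early cleavage, rose 1.93-fold and Nat10, an RNA acetyltransferase, 1.87-fold.

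Within the small subunit factors the subcomplex called t-UTP, which also acts in transcription of the ribosomal genes, had rises of unequal size. Its 5 members in the list rose between 1.30-fold and 1.96-fold. Wdr43 had 57.8 ± 2.03 FPKM in LPS plus PE-CUR and 30.7 ± 1.75 FPKM in LPS (SD, n = 3 each). Utp15 had 20.9, 19.4 and 19.7 FPKM in LPS plus PE-CUR, against 15.2, 17.1 and 15.6 FPKM in LPS, the smallest rise that passed among the 40 (log2 fold change 0.38, SE 0.07, edgeR adjusted p = 4.00e-04). Utp15 stood at 0.775 ± 0.00995 of the level of its partner Heatr1 in LPS plus PE-CUR and 1.05 ± 0.139 in LPS, without overlap. The other 9 small subunit members rose 1.48-fold to 2.72-fold. At the low end was Tsr1, a late factor with a GTPase fold, at 34.5 ± 0.905 FPKM in LPS plus PE-CUR and 24.2 ± 2.19 FPKM in LPS. Nop14 and Noc4l, which bind each other, had 1.63-fold and 1.65-fold rises and a ratio of Noc4l to Nop14 of 0.376 ± 0.0291 in LPS plus PE-CUR and 0.370 ± 0.0163 in LPS.

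Of the 16 large subunit factors 14 rose and 2 did not pass, with a median log2 fold change of 0.77. Rrp1b, a nucleolar protein that also binds chromatin (chromosome 17, 32036100 to 32062865), had 16.0, 14.5 and 14.9 FPKM in LPS plus PE-CUR, against 6.652, 6.999 and 6.629 FPKM in LPS (log2 fold change 1.22, SE 0.06, edgeR adjusted p = 1.15e-07). Ftsj3, an RNA methyltransferase, was the second past 2-fold, with 47.8 ± 1.16 FPKM in LPS plus PE-CUR and 23.4 ± 0.932 FPKM in LPS. The PeBoW complex of Pes1, Bop1 and Wdr12, which is needed to cut the large subunit RNA, rose 1.52-fold to 1.94-fold. Wdr12 stood at 9.86 ± 0.0653 FPKM in LPS plus PE-CUR and 5.29 ± 0.275 FPKM in LPS. It was below its partners on this scale, as Pes1 stood at 65.0 ± 2.59 FPKM in LPS plus PE-CUR and 42.0 ± 2.20 FPKM in LPS. The gap depends on the gene lengths used. In TMM-scaled CPM, without length, Wdr12 had 90.7 and Pes1 193 in LPS plus PE-CUR, and their longest annotated transcripts have 10012 and 2923 bases. The other 10 members that passed, apart from the GTPase Gnl3, had log2 fold changes of 0.59 (Nip7) to 1.22 (Rrp1b). Brix1 had the widest error. Its libraries had 23.6, 33.8 and 26.6 FPKM in LPS plus PE-CUR and 18.5, 15.1 and 14.7 FPKM in LPS (log2 fold change 0.86, SE 0.17, edgeR adjusted p = 0.00442).

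Gnl2 and Gnl3 are related nucleolar GTPases of large subunit assembly, and 1 of them passed. Gnl3, nucleostemin (chromosome 14, 31012433 to 31019152), had 77.5, 102 and 83.9 FPKM in LPS plus PE-CUR, against 51.4, 43.2 and 45.9 FPKM in LPS (log2 fold change 0.97, SE 0.12, edgeR adjusted p = 2.50e-04). Gnl2 (chromosome 4, 125016585 to 125055380) had 15.7, 18.8 and 16.0 FPKM in LPS plus PE-CUR and 17.1, 16.2 and 16.4 FPKM in LPS, so the groups overlapped (log2 fold change 0.08, SE 0.08, edgeR adjusted p = 0.406). Gnl2 relative to Gnl3 was 0.193 ± 0.00964 in LPS plus PE-CUR and 0.355 ± 0.0207 in LPS, without overlap.

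Noc3l, which pairs with Noc2l on precursors of the large subunit in yeast (chromosome 19, 38788128 to 38819237), was the other factor that did not pass. It had 10.3, 11.4 and 10.2 FPKM in LPS plus PE-CUR and 10.4, 8.72 and 9.78 FPKM in LPS, which overlap by a small margin, and 40.8, 47.1 and 41.6 CPM in LPS plus PE-CUR, against 40.6, 34.2 and 37.9 CPM in LPS after TMM scaling, which do not (log2 fold change 0.20, SE 0.09, edgeR adjusted p = 0.0616). It was called higher under 6 of 18 alternatives, with adjusted p from 0.00370 to 0.266 over all 18. Among the 6 were the fits without LPS plus PE-CUR replicate 1 (edgeR adjusted p = 0.0181) and without LPS replicate 1 (edgeR adjusted p = 0.0217). Noc2l rose 1.68-fold, to 56.7 ± 4.10 FPKM in LPS plus PE-CUR, against 35.1 ± 0.430 FPKM in LPS. The ratio of Noc3l to Noc2l was 0.188 ± 0.0216 in LPS plus PE-CUR and 0.274 ± 0.0217 in LPS, without overlap. An adjusted p above the threshold does not show that Gnl2 or Noc3l stayed level.

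**Figure D3:**
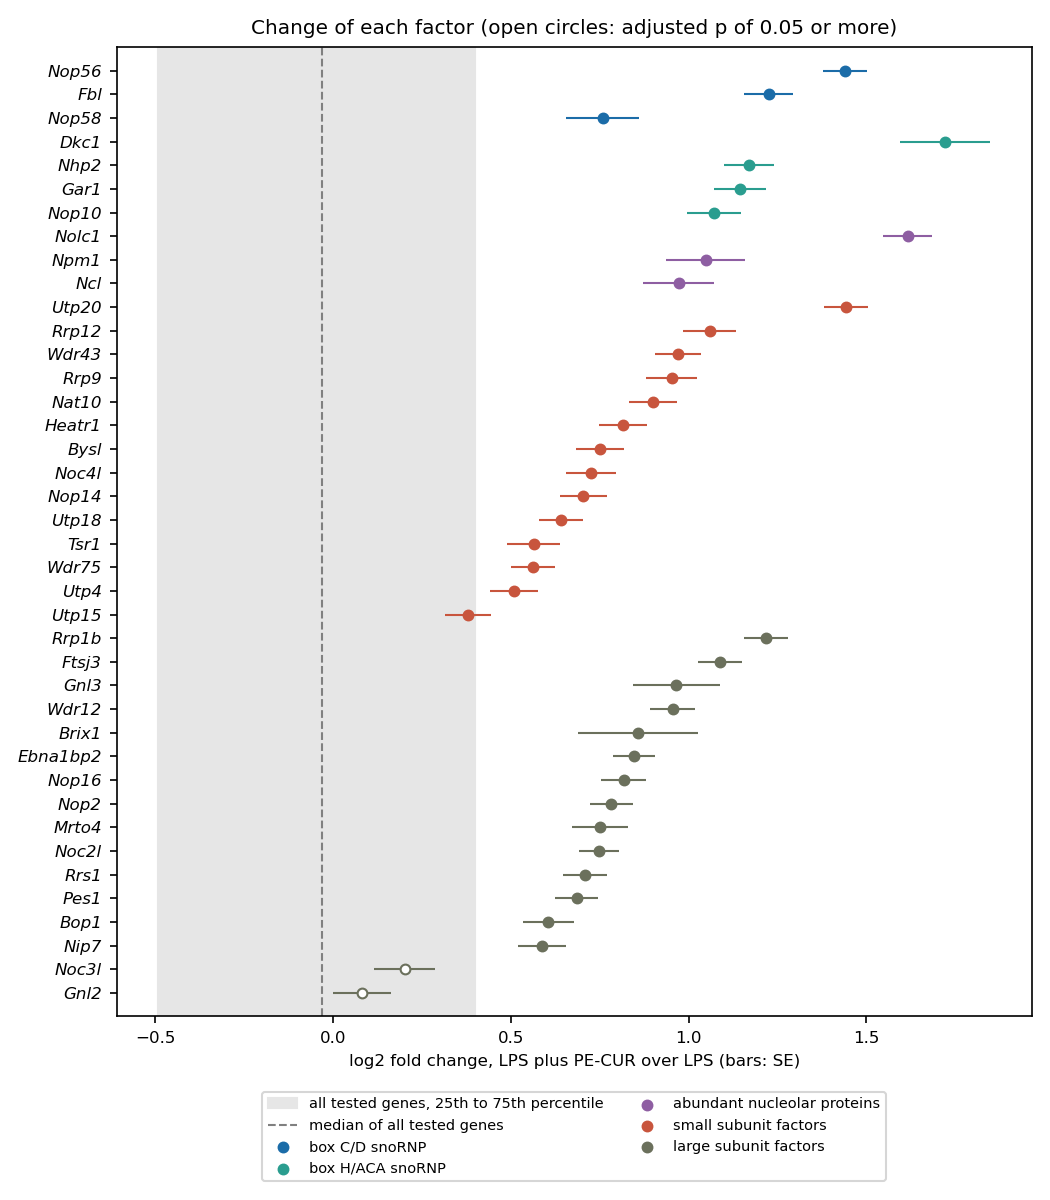
Log2 fold change (LPS plus PE-CUR over LPS) with its SE for the 40 factors by role, beside the 25th to 75th percentile (grey band) and the median (dashed) of all 13014 genes tested. Filled points passed at an adjusted p under 0.05; the open points, Noc3l and Gnl2, did not, and Utp15 is the filled point inside the band.

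The role classes ranked by median log2 fold change as box C/D proteins (1.22), box H/ACA proteins (1.16), abundant nucleolar proteins (1.05), large subunit factors (0.77) and small subunit factors (0.74). With 3, 4, 3, 16 and 14 genes in a class this order is a description. Of the 10 genes of the first 3 classes 8 rose at least 2-fold, whereas 4 of the 30 assembly factors did.

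The spread between libraries was small for most factors, with a median CV of 3.94% in LPS plus PE-CUR and 6.48% in LPS. A set of 7 genes had a CV over 10% in LPS plus PE-CUR (Brix1, Gnl3, Ncl, Npm1, Nop58, Dkc1 and Gnl2). All 7 were highest in LPS plus PE-CUR replicate 2 within that group, where 16 of all 40 factors were. All 7 were also highest in LPS replicate 1 within the LPS group, but so were 26 of the 40. LPS replicate 3 was the lowest LPS library for 32 of the 40 and the highest for 0. The median GC content of their longest transcripts was 42.8%, against 50.5% for the other 33 factors. Over the 40 genes the excess of LPS plus PE-CUR replicate 2 over its fellow libraries ran against GC content (Spearman rho -0.77), and that of LPS replicate 1 did so less (rho -0.51). These points share the same libraries and are given without a test. With offsets for GC content and transcript length, added after seeing the data, 40 of the 40 factors were called higher. Gnl2 had a log2 fold change of 0.21 in the fit with offsets and 0.08 in the main fit, and Noc3l 0.27 and 0.20. The share of all genes called higher was 30.8% in the main fit and reached 40.2% at most over the 18 alternatives, of which the fit with offsets is 1. That fit covered the 12206 of 13014 tested genes with a GC value, so its all-gene values are over another gene set than those of the main fit. Its median over all genes was higher by 0.13, and the excess of the factors' median over it was 0.857, against 0.862 in the main fit. The split of calls among all genes differed as well, with 59.2% of calls higher in the fit with offsets and 48.5% in the main fit.

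**Figure D4:**
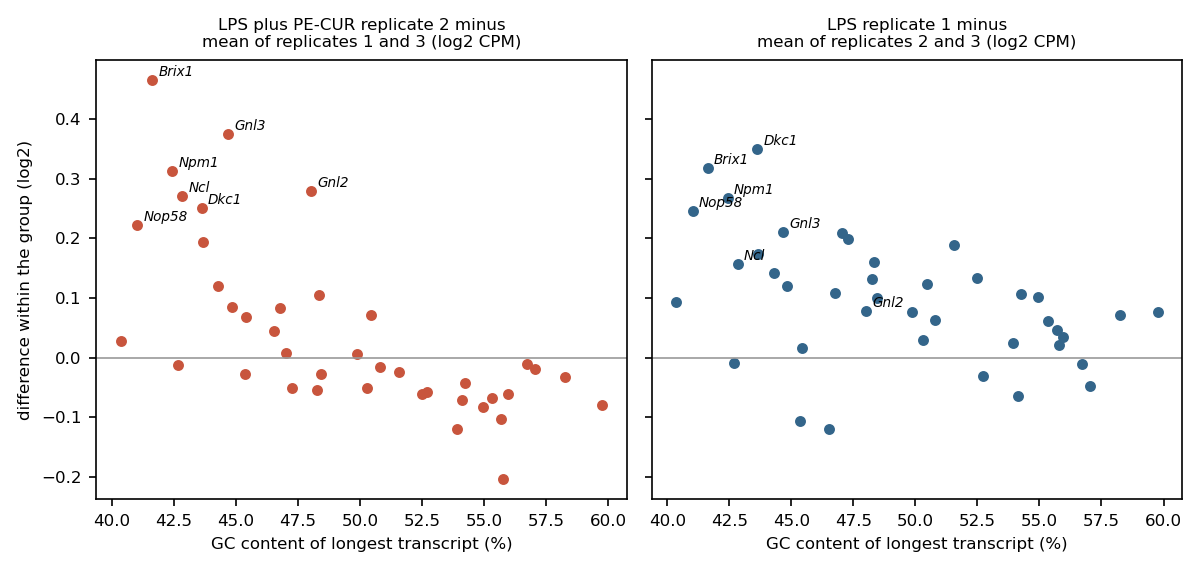
Difference in log2 CPM between 1 library and the mean of the other 2 of its group, for LPS plus PE-CUR replicate 2 (left) and LPS replicate 1 (right), against the GC content of each factor's longest transcript; each point is 1 of the 40 factors. The 7 named genes have a CV over 10% in LPS plus PE-CUR and lie between 41.0% and 48.0% GC.

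Other genes of the pathway were counted from lists drawn up with earlier results of these data known, and the shares read beside the 30.8% of all genes that were higher and the 32.7% that were lower. On log2(FPKM + 1) without a filter on low genes, 15.1% of all genes were called higher. Of 10 tested assembly factors of snoRNPs 9 rose and 0 fell (median log2 fold change 0.66). Ruvbl2 and Ruvbl1 are paired ATPases that help to build box C/D particles. Ruvbl2 had 128 CPM in LPS plus PE-CUR and 52.1 CPM in LPS (edgeR adjusted p = 9.82e-08), and Ruvbl1 had 85.4 CPM in LPS plus PE-CUR, against 40.5 CPM in LPS (edgeR adjusted p = 4.15e-07). Snu13, the fourth core protein of box C/D snoRNPs, rose 1.88-fold. Of 36 other small subunit factors 30 rose and 1 fell (median 0.53). Imp3 had 80.9 CPM in LPS plus PE-CUR and 42.5 CPM in LPS, and Emg1, a methyltransferase, had 137 CPM in LPS plus PE-CUR and 79.4 CPM in LPS. Utp6 had 110 CPM in LPS plus PE-CUR and 63.7 CPM in LPS. Utp23 was the one that fell, with 16.4 CPM in LPS plus PE-CUR and 19.6 CPM in LPS (edgeR adjusted p = 0.0242). Leaving out LPS plus PE-CUR replicate 1 or 2, or LPS replicate 2 or 3, left 0 of these 36 lower.

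Of 39 other large subunit factors 31 rose, 2 fell and 6 did not pass (median 0.48). Rrp15 had 67.5 CPM in LPS plus PE-CUR and 33.7 CPM in LPS, Wdr18 44.9 CPM in LPS plus PE-CUR and 23.5 CPM in LPS, and Nol9, a kinase of RNA ends, 82.7 CPM in LPS plus PE-CUR and 43.0 CPM in LPS. The 2 that fell were Las1l, the endonuclease that works with Nol9, with 46.7 CPM in LPS plus PE-CUR and 63.1 CPM in LPS (edgeR adjusted p = 1.47e-04), and Sbds, which releases a factor from the finished large subunit, with 39.9 CPM in LPS plus PE-CUR and 50.03 CPM in LPS (edgeR adjusted p = 0.00200). Nol9 and Las1l thus moved in opposite directions. Of 15 RNA helicases of ribosome assembly 13 rose and 0 fell (median 0.44), led by Ddx21 with 493 CPM in LPS plus PE-CUR and 252 CPM in LPS.

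Of 16 genes of RNA polymerase I and its factors 10 rose and 0 fell (median 0.39). The rise was largest for Tcof1, a nucleolar partner of Nolc1, with 330 CPM in LPS plus PE-CUR and 132 CPM in LPS, and for the largest enzyme subunits, Polr1a (174 CPM in LPS plus PE-CUR, 79.3 CPM in LPS) and Polr1b (46.2 CPM in LPS plus PE-CUR, 20.1 CPM in LPS). Of 78 genes of cytosolic ribosomal proteins 53 rose, 0 fell and 25 did not pass, and their median log2 fold change was 0.22. They took 4.89%, 4.54% and 4.66% of all counts in LPS plus PE-CUR, against 4.02%, 4.03% and 4.11% in LPS. Rpsa had 1901 CPM in LPS plus PE-CUR and 1116 CPM in LPS, and Rpl7a 715 CPM in LPS plus PE-CUR and 444 CPM in LPS. Many of these genes have processed pseudogenes, and the sources used here do not say how such reads were counted.

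The Myc and Max network showed no common direction, with 3 of 11 genes higher, 3 lower and 5 that did not pass. Mycn was the more abundant Myc gene in these cells, with 258, 223 and 242 FPKM in LPS plus PE-CUR, against 111, 111 and 99.2 FPKM in LPS (fitted fold 2.34, edgeR adjusted p = 1.51e-07). Myc itself fell, with 5.20, 5.70 and 6.12 FPKM in LPS plus PE-CUR, against 7.48, 7.77 and 9.18 FPKM in LPS (log2 fold change -0.46, SE 0.11, edgeR adjusted p = 0.00341). Neither gene had overlapping groups. Max, the partner of both, had 134 CPM in LPS plus PE-CUR and 104 CPM in LPS, and Mxi1, an antagonist, 81.4 CPM in LPS plus PE-CUR and 99.9 CPM in LPS. Whether the Myc genes bear on the nucleolar factors was not tested.

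**Figure D5:**
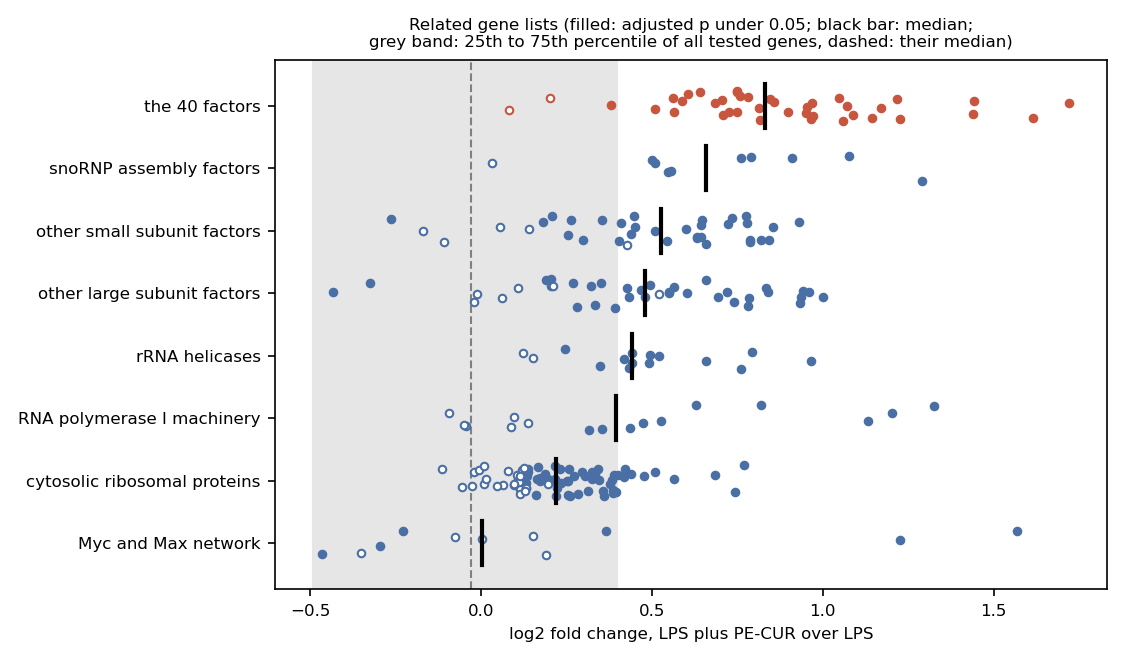
Log2 fold change (LPS plus PE-CUR over LPS) of every tested gene of the 40 factors and of 7 related lists, with medians as black bars; filled points passed at an adjusted p under 0.05. The medians run from 0.83 for the 40 factors to 0.22 for cytosolic ribosomal proteins and 0.00 for the Myc and Max network, beside -0.03 for all genes tested.

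The 40 genes lie on 17 chromosomes with at most 6 on any of them. In the GENCODE M21 annotation of GRCm38, the assembly of mm10, 7 of the 40 hold annotated snoRNA genes on their own strand, which is 17.5% beside 1.88% of 11475 tested protein-coding genes. These hosts hold 21 snoRNA genes, 5 of them in Nop56, 4 in Nop58 and 3 each in Ncl, Gnl3 and Wdr43. Snord57 and Snord110 in Nop56 and Snord11 and Snord70 in Nop58 are box C/D snoRNAs by name, so both scaffold genes carry some RNAs of the class their proteins bind. The other snoRNA genes in Nop56 and Nop58 have names that give no class. Ncl holds Snora75, box H/ACA by name, as well as Snord82. The median log2 fold change of the 7 hosts was 0.97 and that of the other 33 factors 0.81. The snoRNAs themselves were not analysed here.

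A start of another protein-coding gene lay within 1000 bases on the opposite strand for 17 of the 40 factors (42.5%), beside 17.3% of the 11475 genes. Of the 14 such neighbours that were tested 6 rose, 2 fell and 6 did not pass, with a median log2 fold change of 0.18, whereas the median of their 14 factors was 0.75. Among all genes tested 30.8% were higher and 32.7% lower. In 13 of the 14 pairs the factor rose more. As 37 of the 40 factors lie above the 75th percentile of all genes, most genes set beside them would rise less, so this count says little about neighbours. Brix1 and its neighbour Rad1, a DNA damage checkpoint gene, were close, with log2 fold changes of 0.86 and 0.77. Utp15 and Ankra2 went apart, with 0.38 and -0.55, as did Rrp9 and Parp3, with 0.95 and -0.70. The reverse order held for Bop1 and Hsf1, the heat shock factor gene, with 0.61 and 0.74. Of the 40 factors 14 overlap another protein-coding gene, and reads of such overlaps cannot be told apart, because no source used here says whether strand was used in counting.

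Windows of 250 bases before the start were found for 34 of the 40 genes in RefSeq (GRCm38.p6), with 38 windows since some genes have several starts, and not for Bop1, Fbl, Gnl2, Npm1, Rrp12 and Rrs1. They were searched on both strands for CACGTG, the core of the E-box that Myc with Max prefers, and for GGAAGT, a core bound by many ETS factors. CACGTG was present for 2 of the 34 genes (5.88%), Nop2 and Utp18, beside 9.92% of 10343 tested genes and 6.86% of 27025 genes in the RefSeq table. GGAAGT was present for 15 of the 34 (44.1%), beside 27.8% of the tested genes and 22.2% of the table. The motifs shared no base in these windows. The shares are a description, a match is not a binding site, and its absence says only that these letters are not in the window. Of the box H/ACA genes, Gar1, Nhp2 and Nop10 hold GGAAGT and Dkc1, which rose most, holds neither motif. Noc3l, which did not pass, holds GGAAGT.

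The windows below show cases with and without a match, with the box H/ACA genes first, then Nolc1, the largest rise outside them, Noc3l, and Nop2 with its CACGTG. Each is read 5′ to 3′ toward the start from RefSeq, build GRCm38.p6, without bases in an exon annotated by GENCODE, and capitals mark either motif on either strand (ACTTCC is GGAAGT on the other strand). The match of Nhp2 lies in the exonic bases left out.
Dkc1 (chrX:75095604-75095853, plus strand): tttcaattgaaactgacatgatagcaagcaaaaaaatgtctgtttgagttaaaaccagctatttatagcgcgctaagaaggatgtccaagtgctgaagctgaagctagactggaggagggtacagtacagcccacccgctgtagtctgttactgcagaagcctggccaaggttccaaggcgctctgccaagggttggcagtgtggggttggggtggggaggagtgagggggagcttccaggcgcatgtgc
Gar1 (chr3:129831397-129831646, minus strand): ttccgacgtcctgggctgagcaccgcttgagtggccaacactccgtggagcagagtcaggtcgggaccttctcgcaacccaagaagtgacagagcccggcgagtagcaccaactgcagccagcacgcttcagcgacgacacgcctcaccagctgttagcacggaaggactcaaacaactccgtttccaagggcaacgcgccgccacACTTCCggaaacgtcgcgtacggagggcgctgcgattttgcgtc
Nhp2 (chr11:51619523-51619734, plus strand): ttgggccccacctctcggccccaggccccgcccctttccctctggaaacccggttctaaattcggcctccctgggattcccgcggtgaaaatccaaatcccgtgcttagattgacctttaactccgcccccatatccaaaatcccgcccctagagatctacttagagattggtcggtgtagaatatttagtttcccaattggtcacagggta
Nop10 (chr2:112261676-112261925, plus strand): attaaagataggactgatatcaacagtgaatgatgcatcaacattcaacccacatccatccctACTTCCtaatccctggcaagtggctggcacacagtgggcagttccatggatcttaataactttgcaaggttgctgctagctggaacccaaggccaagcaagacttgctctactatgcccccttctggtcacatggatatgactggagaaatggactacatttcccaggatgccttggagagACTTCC
Nolc1 (chr19:46075597-46075846, plus strand): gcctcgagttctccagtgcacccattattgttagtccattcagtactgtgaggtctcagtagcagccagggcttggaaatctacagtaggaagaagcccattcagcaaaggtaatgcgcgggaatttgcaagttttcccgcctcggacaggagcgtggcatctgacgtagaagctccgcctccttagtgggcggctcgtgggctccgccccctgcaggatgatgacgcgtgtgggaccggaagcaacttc
Noc3l (chr19:38819238-38819487, minus strand): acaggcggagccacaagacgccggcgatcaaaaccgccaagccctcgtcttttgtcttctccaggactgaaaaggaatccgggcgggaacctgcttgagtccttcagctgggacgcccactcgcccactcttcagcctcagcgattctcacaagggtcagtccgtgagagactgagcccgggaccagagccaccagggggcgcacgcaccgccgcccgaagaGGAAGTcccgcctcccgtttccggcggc
Nop2 (chr6:125131633-125131882, plus strand): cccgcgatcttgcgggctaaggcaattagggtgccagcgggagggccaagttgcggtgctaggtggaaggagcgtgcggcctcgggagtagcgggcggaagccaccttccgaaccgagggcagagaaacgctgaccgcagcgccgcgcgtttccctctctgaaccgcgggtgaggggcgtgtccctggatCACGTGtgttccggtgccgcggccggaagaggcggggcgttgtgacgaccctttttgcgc
Counted back from the start, the match ends 39 bases before it in Gar1 and 23 bases before it in Noc3l. Nop10 has 2 matches, and the nearer one ends at the base next to the start. Dkc1 and Nolc1, with the largest rises of the 40, have none, but GGAAGT was present for only 15 of the 34 genes. The printed genes were chosen with their rises known, and a link between motif and rise was not tested.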

How the data were processed

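RNA of 6 libraries was analysed, 3 labelled LPS and PE-CUR and 3 labelled LPS. TRIzol extraction and a VAHTS Universal V6 library kit are named per the labels' protocols. The tools named, per the submitters' processing notes, are DESeq2, HTSeq, SAMtools and fastp, with mm10 as build. Not given in the sources used here are versions, aligner, annotation and strand setting. The authors deposited whole-number counts per gene symbol and FPKM values of the same libraries. The deposited FPKM values equal count over gene length and library total in 100% of 105337 values above 0 (relative tolerance 0.0001), so they are a rescaling of the counts.

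Counts were fitted in R 4.3.3 with edgeR 4.0.16 (filterByExpr, 13014 genes kept, TMM factors, robust quasi-likelihood, group as the only term). P-values are two-sided and adjusted by Benjamini-Hochberg over all genes, threshold 0.05. SE is the log2 fold change divided by the root of F. CPM are TMM-scaled, except marker sums, which use library totals. DESeq2 1.42.0 and limma 3.58.1 served as alternatives. The members and gene lists were chosen with earlier results of these data known. Named in full were the 5 largest rises, the 5 highest mean FPKM, members that did not pass and the smallest p of each role class; from each other list up to 3 passing genes with the smallest p in the majority direction and 2 in the other, and Myc. Genes outside this rule were named after their values were seen. Alternatives are given in the closing section, and no library was left out.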

Additional observations from a re-analysis of the deposited data

How the results depend on the processing

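Over 18 alternatives 38 to 40 of the factors were called higher and 0 lower, and 10 to 18 at least 2-fold higher, the 18 without LPS replicate 1. The GC and length offsets were chosen after seeing the data, and that fit covered the 12206 genes with a GC value. Of 720 values of single factors under an alternative, 713 kept their direction and call and 7 gained a call, 6 of them Noc3l (log2 fold change 0.22 to 0.30) and 1 Gnl2 with GC and length offsets (0.21). The factors' median log2 fold change, 0.83, moved by more than its SD over LPS plus PE-CUR libraries to 0.78 with library totals alone, 0.89 without a filter, 0.80 with a mean of at least 1 CPM, 0.75 on log2(FPKM + 1) with and without a filter, 0.77 on log2(FPKM + 0.1), 0.87 without mitochondrial and the 10 most abundant genes, and 0.95 with GC and length offsets. With a library left out it was 0.82 to 0.92, within that SD of 0.83 without replicate 3 of either group. The median of all genes, -0.03, was -0.10 without a filter, -0.09 with library totals alone, -0.08 on log2(FPKM + 0.1), 0.10 with offsets and between these values otherwise. Of all genes 15.1% to 40.2% were called higher and 20.2% to 35.6% lower, the low ends being fits without a filter, in which 21604 genes were tested. Beside 0 in the main result, 1 cytosolic ribosomal protein was lower with library totals alone, a mean of at least 1 CPM, and each of the 3 FPKM fits. Of the other small subunit factors 0 were lower without a filter, with DESeq2 and with offsets, 2 on log2(FPKM + 1) and log2(FPKM + 0.1) with the filter, and 0 to 1 with a library left out. The cause of these moves was not tested. Same-numbered libraries did not deviate together (correlations -0.10, -0.18 and -0.05), so the number pairs nothing by this check. With the replicate number as a block 38 factors were higher, 0 lower and 12 at least 2-fold higher, with a median of 0.83.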
